A study of Homo sapiens with 16 samples.

Results

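The question was which differences between TXNIP-deleted and unedited cells stood when Myc was low. The comparison set 231:TKO+siMyc against parental 231+siMyc, with 3 libraries a side, 6 of the 16 libraries of the series. Every library came from MDA-MB-231 cells, a mesenchymal line of human triple-negative breast cancer. 231:TKO cells carry a CRISPR/Cas9 deletion of TXNIP and were grown from single cells, so they stand for few or 1 founder cell rather than for the parental population. Parental 231 cells are unedited. Both groups of the comparison had been transfected with an siRNA against MYC and were collected after 48 hours. The libraries set beside them were 231:TKO+siNT and parental 231+siNT, with 3 libraries each after a non-targeting siRNA for 48 hours, and untreated 231:TKO and parental 231, with 2 libraries each. These 3 genotype comparisons share no library. All share the pair of cell populations, and both siRNA comparisons also share the technical differences between genotypes described below.

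TXNIP is an alpha-arrestin that restrains glucose uptake through glucose transporters and binds thioredoxin, the small protein that keeps cysteines reduced. Its own gene is switched on by MondoA and Mlx, a pair of bHLHZip factors that respond to glucose-6-phosphate. Myc belongs to the same wider family, pairs with Max, binds the E-box CACGTG and drives genes for ribosome assembly, nucleotide synthesis and glycolysis.

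Total counts lay between 34644125 and 39527700 in 231:TKO+siMyc and between 51488933 and 59799444 in parental 231+siMyc. The siRNA-treated genotypes were counted apart. The name of each count column begins with a number, called the request number here, and no label says what it stands for. All siRNA-treated 231:TKO libraries shared 1 such number and were counted on an earlier Ensembl release. All siRNA-treated parental libraries shared another number and were counted on a later release. The untreated libraries were counted on the earlier one. Among the siRNA-treated libraries, genotype, request number and release therefore cannot be told apart. Of 23561 genes tested, 496 had an exonic length not shared with other genes that differed by over 10% between the releases, and 272 of these were called, 54.8% beside 40.6% over all genes tested. Library 3 of parental 231+siMyc stood apart: the spread of its deviation from the other 2 over genes was 0.33 (SD, log2), against 0.18 in each of those, and its deviation fell with gene length (Spearman's rho = -0.59 across 13540 genes, which are not independent replicates). Results on short genes are therefore given with and without it. Markers of the line were summed in CPM (read counts scaled to a common library size). The 7 listed as present, VIM, CD44, AXL, CAV1, ZEB1, MET and EGFR, summed to between 5211 and 5306 CPM in 231:TKO+siMyc. In parental 231+siMyc they summed to between 5385 and 5647. The 5 tested markers listed as low or absent in the line were not absent as a sum. They summed to between 111 and 125 CPM in 231:TKO+siMyc, with 1 of them at 0 in every library. In parental 231+siMyc they summed to between 124 and 134. A sum does not show the level of each marker. Of 8 myoblast markers 4 could be tested, and they summed to at most 2.04 CPM in any of these libraries, with CHRNA1 at 0 in the edited ones. The 3 replicates on each side are separate samples by their labels, but whether each was a culture of its own is not stated for both genotypes, so p-values measure the spread between these samples, which may be technical.

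TXNIP itself was far lower in the edited cells. TXNIP (ENSG00000265972; chr1:145992435-145996579, GRCh38, minus strand) lay at 9.47, 8.96 and 10.2 CPM in the 231:TKO+siMyc libraries and at 465, 467 and 436 in the parental 231+siMyc libraries. CPM are scaled by TMM over all 16 libraries, while each log2 fold change comes from the fit of its own comparison. The groups stood far apart, and the log2 fold change (± SE, as for all fold changes here) was -5.57 ± 0.11 (edgeR, adjusted p = 1.92e-12). With siNT the parental libraries held 323, 304 and 302 CPM, below every parental 231+siMyc library. Some reads remained in every edited library. MYC lay at 58.6, 58.1 and 58.8 CPM in 231:TKO+siMyc and at 65.01, 64.5 and 67.6 in parental 231+siMyc. With siNT it lay at 121, 144 and 131 CPM in 231:TKO and at 127, 127 and 132 in parental 231. Myc mRNA was thus about as low on both sides: the log2 fold change between genotypes was -0.16 ± 0.09 and did not pass the test (adjusted p = 0.162), although without library 3 of parental 231+siMyc it was -0.14 and did (adjusted p = 0.047).

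**Figure D1:**
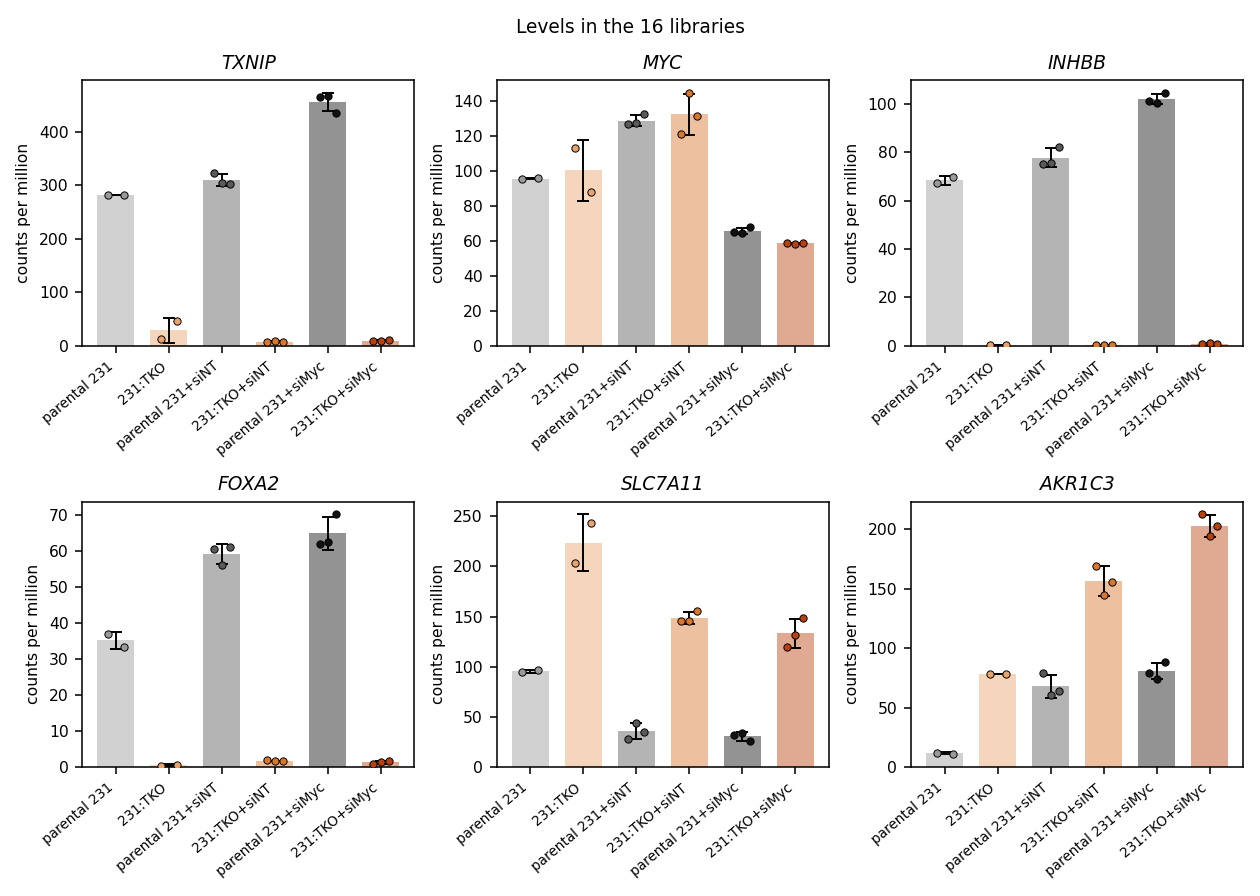
Levels of 6 genes in CPM on a linear axis from 0, in the 16 libraries grouped by genotype and treatment. Bars are means with SD and points are libraries; TXNIP, INHBB and FOXA2 are lower in each 231:TKO group than in its parental group, MYC is lower in both siMyc groups than in the siNT groups, and SLC7A11 and AKR1C3 are higher in 231:TKO under each condition.

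The sequence before the TXNIP start shows the elements through which glucose acts. It is printed 5′ to 3′ from RefSeq for GRCh38.p14 at chr1:145996580-145996829 on the minus strand, with both copies of CACGAG in capitals, beginning 88 and 77 bases before the start. The same stretch before ARRDC4, a close relative of TXNIP (chr15:97960453-97960702, plus strand), holds 1 CACGTG, 210 bases before its start.
TXNIP: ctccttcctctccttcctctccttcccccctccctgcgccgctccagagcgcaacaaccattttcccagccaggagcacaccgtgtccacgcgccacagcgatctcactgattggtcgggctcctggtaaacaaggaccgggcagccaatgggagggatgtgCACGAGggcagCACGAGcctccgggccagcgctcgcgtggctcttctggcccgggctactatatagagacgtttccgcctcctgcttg
ARRDC4: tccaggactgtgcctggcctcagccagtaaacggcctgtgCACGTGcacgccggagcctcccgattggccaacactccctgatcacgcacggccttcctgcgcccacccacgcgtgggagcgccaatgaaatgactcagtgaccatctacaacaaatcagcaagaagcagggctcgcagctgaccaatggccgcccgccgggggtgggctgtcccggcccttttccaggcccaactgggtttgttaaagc
CACGTG was searched in the 250 bases before each start, where it reads alike on both strands, and CACGAG on either strand. Of all 27305 promoters in the RefSeq table, 6.49% held CACGTG and 5.62% held CACGAG. TXNIP held no CACGTG in this window.

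Among the other arrestins, ARRDC4 was lower in the edited cells, at 1.304, 1.78 and 2.26 CPM against 6.15, 6.84 and 5.41, a log2 fold change of -1.77 ± 0.18 (adjusted p = 5.08e-06). ARRDC2 was lower too, at 29.1, 28.9 and 24.2 against 45.9, 43.2 and 43.5 (-0.68 ± 0.10, adjusted p = 0.00015). ARRDC3, which sorts receptors for degradation, was higher, at 69.4, 72.6 and 83.1 against 56.3, 50.9 and 42.2 (0.60 ± 0.12, adjusted p = 0.00119). Each of these 3 genes kept its groups apart, as did 53.6% of all genes tested. MLXIP, which encodes MondoA, had a log2 fold change of -0.09 (adjusted p = 0.641) and MLX 0.04 (adjusted p = 0.744), neither past the test. Within the Myc network, 3 of 10 genes were higher and 2 lower (50.0% called beside 40.6% over all genes tested). Without library 3 of 231:TKO+siMyc 1 was higher, and without library 3 of parental 231+siMyc 5 were. The repressors MNT (0.50 ± 0.10, adjusted p = 0.00132) and MXD1 (0.38 ± 0.11, adjusted p = 0.0145) were higher and MXD4 was lower (-1.11 ± 0.09, adjusted p = 8.36e-07). MYCN, which also passed as higher, did not exceed 0.151 CPM in any of these libraries and lost its call in 7 alternative settings, and MYCL, which passed as lower, did not exceed 1.51 CPM.

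With Myc depleted, 4441 genes were higher in 231:TKO and 5117 lower, which is 18.8% and 21.7% of the 23561 tested, or 40.6% in all (edgeR's quasi-likelihood test on raw counts, Benjamini-Hochberg adjusted p of at most 0.05). At an unadjusted p below 0.05 there were 11367. The groups did not overlap in CPM for 53.6% of the genes. The median size of a called difference was 0.77 on the log2 scale, and 1678 called genes differed by more than 2, of which 680 were higher and 998 lower. With siNT in place of siMyc, 3759 of 23310 genes were higher (16.1%) and 4819 lower (20.7%), 36.8% in all.

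Most of the calls stood on both sides of the knockdown. Of 22443 genes tested in both comparisons, 7340 were called in both, and 7338 of these had the same direction, 3197 higher and 4141 lower. They made up 77.4% of the calls with Myc depleted and 85.9% of those with siNT. Across the 13540 genes above 1 CPM the log2 fold changes had a Pearson correlation of 0.98. It is given as a description, since genes are not independent and each genotype had its own request number and release. By size, of the genes called with siNT, 78.0% of those with a log2 size up to 0.5 were called in the same direction with Myc depleted, 92.2% between 0.5 and 1, 86.5% between 1 and 2 and 84.8% above 2. The median ratio of the difference with siMyc to that with siNT was 0.937 in the largest class. The pair of genes called in opposite directions, named after their values were seen, were HHIPL2, at most 0.270 CPM in any of the 12 libraries, and ENSG00000275180, which has no symbol in the tables used here. For HHIPL2 the log2 fold change was 1.96 with siMyc and -1.89 with siNT.

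**Figure D2:**
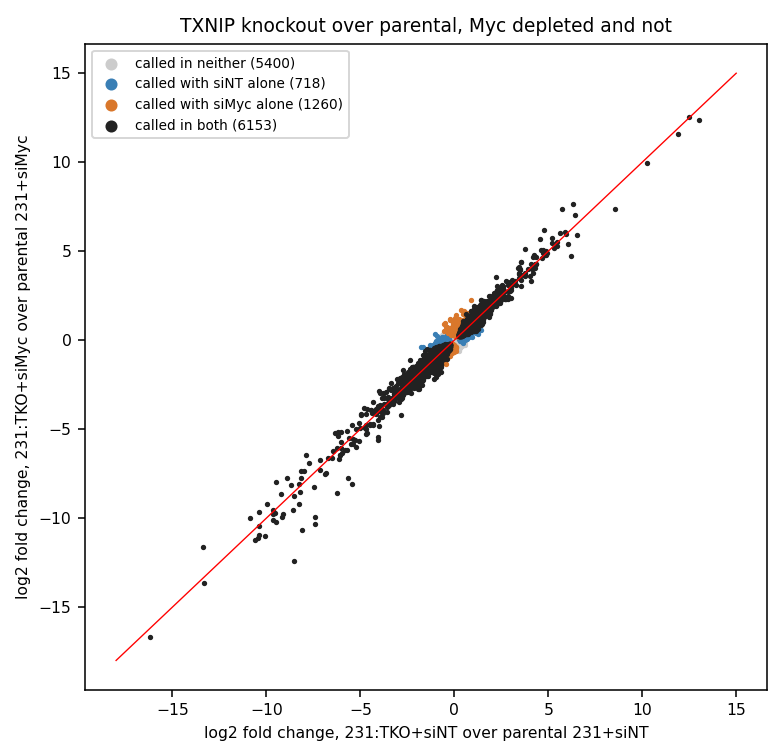
Log2 fold changes of 231:TKO over parental 231 with siNT (horizontal) and with siMyc (vertical) for genes above 1 CPM, with the line of equal values. The 6153 genes called in both lie along the line, and the 718 called with siNT alone and the 1260 called with siMyc alone lie near the centre.

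A further 536 genes were called higher and 663 lower with siNT and did not pass with Myc depleted. Their median log2 fold changes were 0.68 and -0.60 with siNT and 0.30 and -0.28 with siMyc, and 513 of the 536 and 622 of the 663 kept their sign. Missing the threshold on 1 side does not show that the difference went. The difference between both genotype contrasts was tested directly in the 12 siRNA libraries, and edgeR called 0 of 25812 genes, with 1039 at an unadjusted p below 0.05. DESeq2 called 6 in the same design and 749 at an unadjusted p below 0.05. When library 1 of parental 231+siNT and library 3 of parental 231+siMyc, both low in long genes, were left out together, edgeR called 63, of which 25 were positive and 38 negative. That last setting was chosen after the data had been seen.

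The 6 genes called by DESeq2 were all among the 63, and all had a lower ratio of 231:TKO to parental when Myc was depleted. They are named after their values were seen. PUS7, a pseudouridine synthase, stood at 29.9, 28.5 and 25.9 CPM in 231:TKO+siNT and at 15.6, 18.2 and 16.9 in parental 231+siNT. With siMyc it stood at 13.7, 14.8 and 14.2 and at 13.4, 13.7 and 11.5. Over all 12 libraries the difference of the contrasts was -0.64 ± 0.15 (log2, DESeq2 adjusted p = 0.0453), and the values in parentheses for the other genes of this group come from the same fit. Without the pair of libraries named above its log2 fold change was 0.73 with siNT and 0.08 with siMyc, the latter not past the test. CTPS1, which makes CTP, stood at 95.7, 92.1 and 96.5 CPM in 231:TKO+siNT and at 71.9, 75.7 and 70.9 in parental 231+siNT. With siMyc the values were 52.1, 50.8 and 51.3 against 50.3, 52.4 and 49.4, so both populations came to nearly the same level (-0.41 ± 0.08, adjusted p = 0.00654). Without the pair of libraries named above its log2 fold change was 0.42 with siNT and 0.01 with siMyc. In untreated cells the log2 fold change was -0.19 for CTPS1 and -0.0001 for PUS7, neither past the test. BZW2, a translation regulator, was lower in the edited cells already with siNT. In untreated cells its log2 fold change was 0.01 and did not pass. It lay at 50.1, 47.8 and 49.7 CPM against 85.0, 79.8 and 81.4 with siNT, and at 20.6, 21.4 and 23.4 against 54.0, 53.6 and 60.1 with siMyc, where the gap was wider (-0.67 ± 0.11, adjusted p = 6.62e-05). DDX10, an RNA helicase of ribosome assembly, behaved alike in the siRNA libraries. Its mean levels were 53.4 against 85.2 CPM with siNT and 35.4 against 75.04 with siMyc (-0.46 ± 0.11, adjusted p = 0.0453). In untreated cells DDX10 was higher in the edited ones, with a log2 fold change of 0.44 and an edgeR adjusted p of 0.0267. PMEPA1, an inhibitor of TGF-beta signalling, averaged 101 CPM with siNT and 143 with siMyc in parental cells and lay between 34.5 and 39.3 CPM in all 6 edited siRNA libraries (-0.44 ± 0.09, adjusted p = 0.0134). IFIT2, an interferon-induced antiviral gene, was at 202 against 222 CPM on average with siNT and at 160 against 229 with siMyc (-0.44 ± 0.09, adjusted p = 0.0134).

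**Figure D3:**
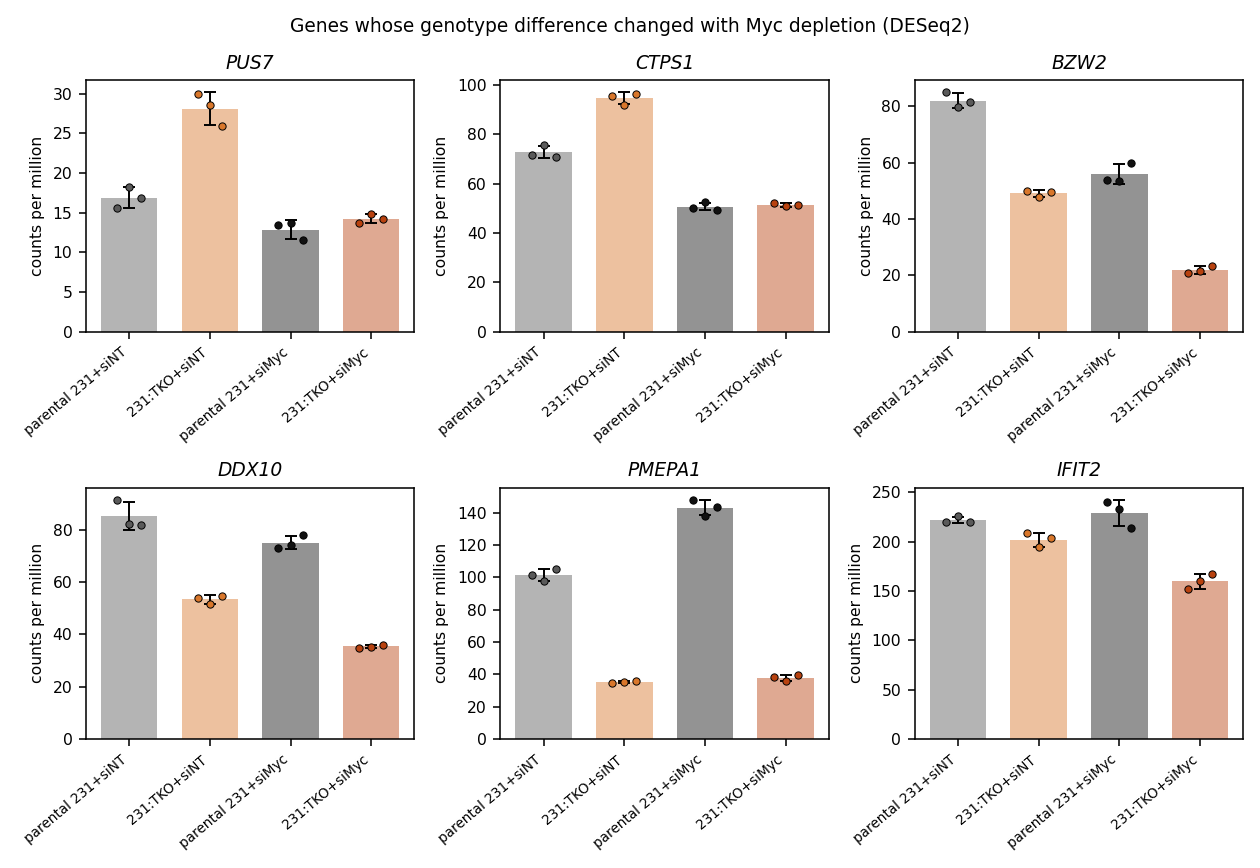
Levels, in CPM, of the 6 genes that DESeq2 called for a difference between the genotype contrasts, in the 12 siRNA libraries (bars, means; error bars, SD; points, libraries; linear axes from 0). PUS7 and CTPS1 are higher in 231:TKO than in parental cells with siNT and about level with siMyc, and BZW2 and DDX10 are lowest in 231:TKO+siMyc.

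The untreated cells gave a different picture from the siRNA-treated ones. They had been counted as single reads and had a request number of their own, and the siRNA libraries were counted as read pairs. There 1085 of 19951 genes were higher in 231:TKO (5.44%) and 834 lower (4.18%), 9.62% in all. Of 19046 genes tested with Myc depleted and untreated, 1169 were called in both, 839 in the same direction and 330 in opposite directions. The 839 made up 9.83% of the calls with Myc depleted and 43.9% of the untreated ones. Across 13415 genes above 1 CPM, the log2 fold changes with Myc depleted and untreated had a Pearson correlation of 0.36 (Spearman's rho = 0.18). Of 6717 genes called in the same direction in both siRNA comparisons and tested in all 3, 61.4% had the same sign in untreated cells. Of the 6717, 756 (357 higher and 399 lower) were called untreated with that sign and 248 with the opposite sign. The untreated comparison has 2 libraries a side, and without either parental library edgeR made 0 calls there, without 231:TKO library 1 it made 6995 and without library 2 6792.

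Of the genes that the study names, some differed between genotypes with Myc depleted and others did not pass. None of them was among the 6 or the 63 genes called above for a difference between the contrasts. A gene that did not pass here, or that differed from its untreated value, does not show that Myc depletion changed its difference. INHBB, FOXA2, KISS1, ZNF704, AKR1C3, MT-ATP8 and G0S2 were named from the untreated libraries. SLC20A1, TOMM5 and RPS21 were named from siRNA-treated libraries that include the 6 compared here, so their values are a description. INHBB, which encodes the beta B subunit of activins and inhibins, stood. It lay at 0.851, 0.891 and 0.754 CPM in 231:TKO+siMyc and at 101, 100.4 and 105 in parental 231+siMyc (-6.93 ± 0.13, adjusted p = 1.92e-12), with log2 fold changes of -7.72 with siNT and -7.58 untreated. FOXA2, a forkhead pioneer factor of endoderm, lay at 0.936, 1.32 and 1.58 against 61.9, 62.5 and 70.1 CPM (-5.64 ± 0.16, adjusted p = 4.48e-11). KISS1, a metastasis suppressor, lay at 0.284, 0.351 and 0.251 against 5.28, 4.48 and 8.03 CPM (-4.31 ± 0.29, adjusted p = 8.36e-08). All 3 were also lower in the untreated edited cells. AKR1C3, an aldo-keto reductase that makes steroids and prostaglandins, was higher, at 213, 194 and 203 against 79.5, 74.3 and 88.2 CPM (1.34 ± 0.10, adjusted p = 2.09e-07). SLC20A1, a phosphate transporter, was higher at 385, 394 and 401 against 245, 259 and 235 CPM (0.68 ± 0.09, adjusted p = 3.36e-05), as was the mitochondrial gene MT-ATP8 at 498, 476 and 560.3 against 381, 370.2 and 344 (0.49 ± 0.09, adjusted p = 0.000832).

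G0S2, an inhibitor of the lipase ATGL, did not pass. Its values were 107, 114 and 114 CPM in 231:TKO+siMyc and 103, 95.6 and 131 in parental 231+siMyc, which overlap (0.03 ± 0.12, adjusted p = 0.879). In untreated cells they were 195 and 119 against 17.04 and 17.4. The untreated libraries also differed in siRNA treatment, read type and request number, so such a contrast is not one of Myc level alone. Without library 3 of parental 231+siMyc the log2 fold change was 0.17 and passed (adjusted p = 0.0191). ZNF704, a zinc finger gene, was at 11.9, 11.02 and 11.3 against 13.4, 13.7 and 9.49 CPM, also overlapping (-0.09 ± 0.14, adjusted p = 0.633), while the untreated cells held 0.3001 and 0.0686 against 26.3 and 25.7. Without the same library it was -0.24 (adjusted p = 0.0173). TOMM5, a small subunit of the mitochondrial import pore, had a log2 fold change of -0.30 ± 0.12 (adjusted p = 0.0667) here and 1.63 in untreated cells. RPS21, of the small ribosomal subunit, was lower with Myc depleted at 225, 234 and 212 against 272, 249 and 408 CPM (-0.46 ± 0.16, adjusted p = 0.0364) and higher in the untreated edited cells (0.51, adjusted p = 0.0145). Its highest value was the library that stood apart, and without that library it was -0.22 (adjusted p = 0.00381), and it lost the call in 8 alternative settings.

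The genes whose differences were largest across all 3 comparisons were mostly off on 1 side. PDE1C, a calmodulin-dependent phosphodiesterase, had 0 counts in each 231:TKO+siMyc library and 15.8, 16.1 and 14.3 CPM in parental 231+siMyc, at least 181-fold lower against a floor of 3 counts per library. The parental cells held 38 and 35.4 CPM untreated and the edited cells at most 0.0667. ATP10A, a lipid flippase, lay at 0, 0 and 0.0251 against 40.9, 41.6 and 28.8 CPM, with 56.9 and 58.6 in untreated parental cells. DSC2, a desmosomal cadherin, lay at 0, 0.027 and 0 against 14.7, 14.3 and 10.3 CPM. These 3 genes were at or near 0 in all 8 edited libraries. LINC00261, a noncoding gene beside FOXA2 on chromosome 20, moved as FOXA2 did, at 0.0851, 0.243 and 0.176 against 35.9, 39.7 and 35.5 CPM. LINC01929 on chromosome 18 lay at 0.142, 0.108 and 0.226 against 67.05, 66.3 and 67.03 CPM, and PTPRQ, a phosphatidylinositol phosphatase, had 0 counts against 2.74, 2.56 and 2.06 CPM.

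On the higher side, TNS1, which encodes the focal adhesion protein tensin 1, lay at 35.5, 37.3 and 32.99 CPM against 0.826, 0.488 and 0.4004 (5.92 ± 0.19, adjusted p = 9.32e-11) and at 35.8 and 11.8 against 1.27 and 1.89 untreated. The gene named CPM, for carboxypeptidase M, lay at 22.3, 22.4 and 23.1 on the same scale against 4.87, 4.78 and 4.44 (2.27 ± 0.10, adjusted p = 1.94e-09). IHH, the Indian hedgehog ligand, lay at 1.81, 2.403 and 1.99 CPM against 0.229, 0.346 and 0.2002, and PPP4R4, a regulatory subunit of a phosphatase, at 2.47, 1.998 and 3.12 against 0.457, 0.285 and 0.601. VNN2, a pantetheinase, lay at 2.61, 4.08 and 3.495 against 0.141, 0.102 and 0.1201. For 3 others the untreated replicates disagreed. GRAMD1B, a sterol transporter, lay at 131, 127 and 132 CPM against 8.07, 7.14 and 5.07 with Myc depleted, but at 76.95 and 0.0686 in the 2 untreated 231:TKO libraries. CCNP, a cyclin-like gene, lay at 10.7, 10.6 and 9.68 against 0.5803, 1.04 and 0.941 and at 10.1 and 0 in untreated 231:TKO. The protocadherin PCDHB16 lay at 14.9, 14.8 and 14.6 against 2.22, 2.34 and 1.94 and at 0.767 and 9.78 in untreated 231:TKO, and its unshared exonic length fell from 4569 to 3654 bases between the releases.

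**Figure D4:**
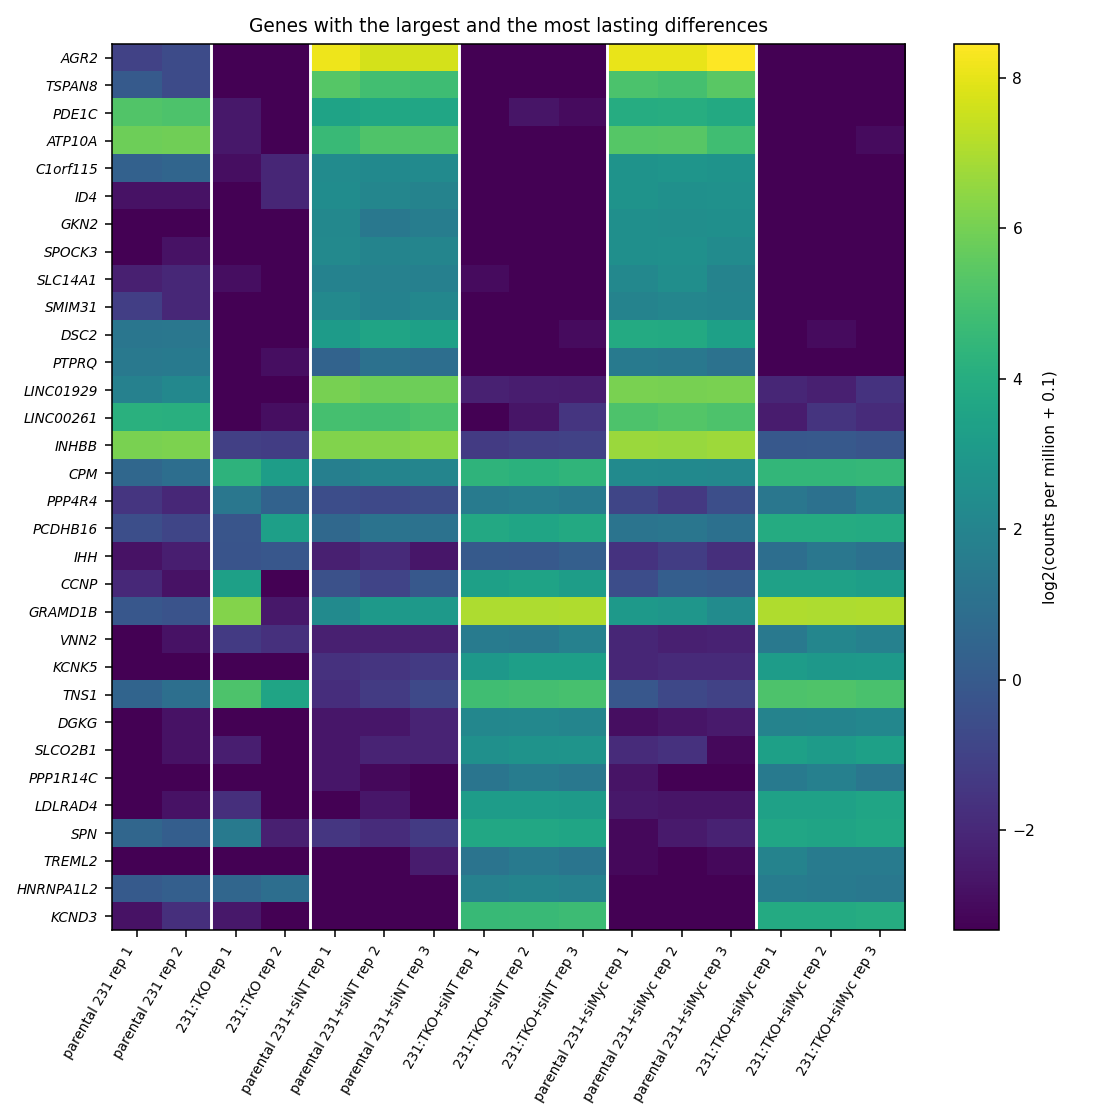
Levels, as log2(CPM + 0.1), of the 32 genes with the largest differences when Myc was depleted or the largest lasting differences, in all 16 libraries (white lines divide the groups). AGR2, TSPAN8 and ID4 are high in siRNA-treated parental libraries and low in untreated ones, PDE1C, ATP10A and INHBB are high in every parental group, and GRAMD1B differs between the untreated 231:TKO libraries.

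Most of the genes lowest in the edited cells with Myc depleted were hardly expressed by untreated parental cells. AGR2, a disulfide isomerase of secretory cells, had 0 counts in each 231:TKO+siMyc library and 268, 269 and 349 CPM in parental 231+siMyc, at least 3470-fold lower. Untreated parental cells held 0.407 and 0.547 CPM. TSPAN8, a tetraspanin, had 0 counts against 34.3, 31.7 and 43.7 CPM, at least 430-fold lower, and lay at 0.916 and 0.547 in untreated parental cells. ID4, an inhibitor of bHLH factors, had 0 counts against 6.52, 5.94 and 6.15 CPM, and C1orf115, SPOCK3, GKN2, SMIM31 and SLC14A1 had 0 counts in all 3 edited libraries and between 3.75 and 6.88 CPM in the parental ones. Untreated parental cells held at most 1.34 CPM of any of these genes. SPDEF, an epithelial transcription factor of secretory cells, followed the same course, at 0.425, 0.54 and 0.427 against 125, 121 and 141 CPM (-8.11 ± 0.15, adjusted p = 1.92e-12) and 4.22 and 4.73 in untreated parental cells. What set siRNA-treated parental cells apart from untreated ones was not tested.

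The genes highest in the edited cells relative to parental ones were genes with few or no reads in parental cells. KCND3, a potassium channel, lay at 14.7, 14.8 and 15.7 CPM in 231:TKO+siMyc with 0 counts in each parental 231+siMyc library, at least 247-fold higher, and at no more than 0.199 CPM in any untreated library. SPN, the sialophorin CD43, lay at 12.4, 11.6 and 12.8 against 0.0176, 0.0814 and 0.1201, and LDLRAD4, an inhibitor of TGF-beta signalling, at 10.6, 10.6 and 11.9 against 0.0703, 0.06104 and 0.0601. SLCO2B1, an organic anion transporter, lay at 10.2, 8.64 and 10.2 against 0.176, 0.224 and 0.02002, KCNK5, another potassium channel, at 9.13, 7.64 and 7.896 against 0.141, 0.163 and 0.1602, and DGKG, a diacylglycerol kinase, at 3.8, 3.83 and 4.22 against 0.0352, 0.06104 and 0.0801. TREML2 and PPP1R14C were between 2.44 and 3.74 CPM in the edited cells and at most 0.0528 in parental ones. All of these also differed with siNT, and in untreated 231:TKO cells all but SPN stayed at or below 0.200 CPM. HNRNPA1L2 had 0 counts in every library counted on the later release. Its unshared exonic length was 1254 bases in the earlier release and 0 in the later one, so its difference cannot be told apart from the annotation.

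Counts over gene groups are read beside the shares over all genes with Myc depleted, 18.8% higher and 21.7% lower. The antioxidant genes of NRF2, the factor that answers oxidative and electrophilic stress, were mostly higher in the edited cells. Of 21 tested, 14 were higher and 1 lower (71.4% called), with a median log2 fold change of 0.73 beside -0.01 over all genes. With siNT 15 were higher and 1 lower, and untreated 7 and 0. SLC7A11, the cystine importer, lay at 120, 132 and 149 CPM against 32, 34 and 25.9 (2.13 ± 0.12, adjusted p = 2.08e-08). ME1, which makes NADPH, lay at 69.2, 72.4 and 78.8 against 27.7, 31.7 and 32.3 (1.27 ± 0.10, adjusted p = 5.52e-07). TXNRD1, the reductase of thioredoxin, lay at 1579.7, 1523 and 1686 against 851, 875 and 659 (1.01 ± 0.11, adjusted p = 8.92e-06). NQO1, ABCC2, ABCC3, FTL, AKR1B10, AKR1C1 and HMOX1 were higher by between 0.73 and 1.20. AKR1C2 was the lower member, at 1.93, 2.11 and 2.26 against 4.38, 4.11 and 5.17 CPM. AKR1C genes share near-identical sequence, so the reads of AKR1C1, AKR1C2 and AKR1C3 may be split between them. SRXN1, GCLM, PGD, TALDO1 and FTH1 were among those that did not pass. Of the 16 genes of the thioredoxin and peroxiredoxin system, TXNRD1 alone was higher and 5 were lower (37.5% called, near the 40.6% over all genes), among them PRDX2 (-0.81 ± 0.12), which reduces peroxide, and GLRX (-0.67 ± 0.10), which removes glutathione from proteins. Without a 231:TKO+siMyc library, 2 or 3 of the 16 were lower, and without library 3 of parental 231+siMyc 3 were higher. TXN, the partner of TXNIP, was at -0.21 (adjusted p = 0.161).

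Glycolytic genes were mostly lower. Of 30 genes of glucose transport and glycolysis, 17 were lower and 6 higher (76.7% called, beside 40.6% over all genes), with a median of -0.27, against 10 and 7 with siNT. HK2, the hexokinase of proliferating cells, was at -0.97 (adjusted p = 4.1e-05), the transporter SLC2A1 (GLUT1) at -0.39 (adjusted p = 0.00179), LDHA at -0.49 (adjusted p = 0.000599) and the lactate exporter SLC16A3 at -0.84 (adjusted p = 9.17e-06). ALDOC lay at 5.44, 5.103 and 4.95 against 10.2, 10.6 and 11.6 CPM (-1.06 ± 0.11) and SLC16A4 at 0.284, 0.216 and 0.478 against 2.83, 3.28 and 3.74 (-3.30 ± 0.25). Those higher included the transporters SLC2A12 (1.42 ± 0.13), SLC2A10 (0.66 ± 0.11) and SLC2A3 (0.45) and PFKFB2 (0.73 ± 0.13), a regulator of phosphofructokinase. PKM and HK1 did not pass.

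**Figure D5:**
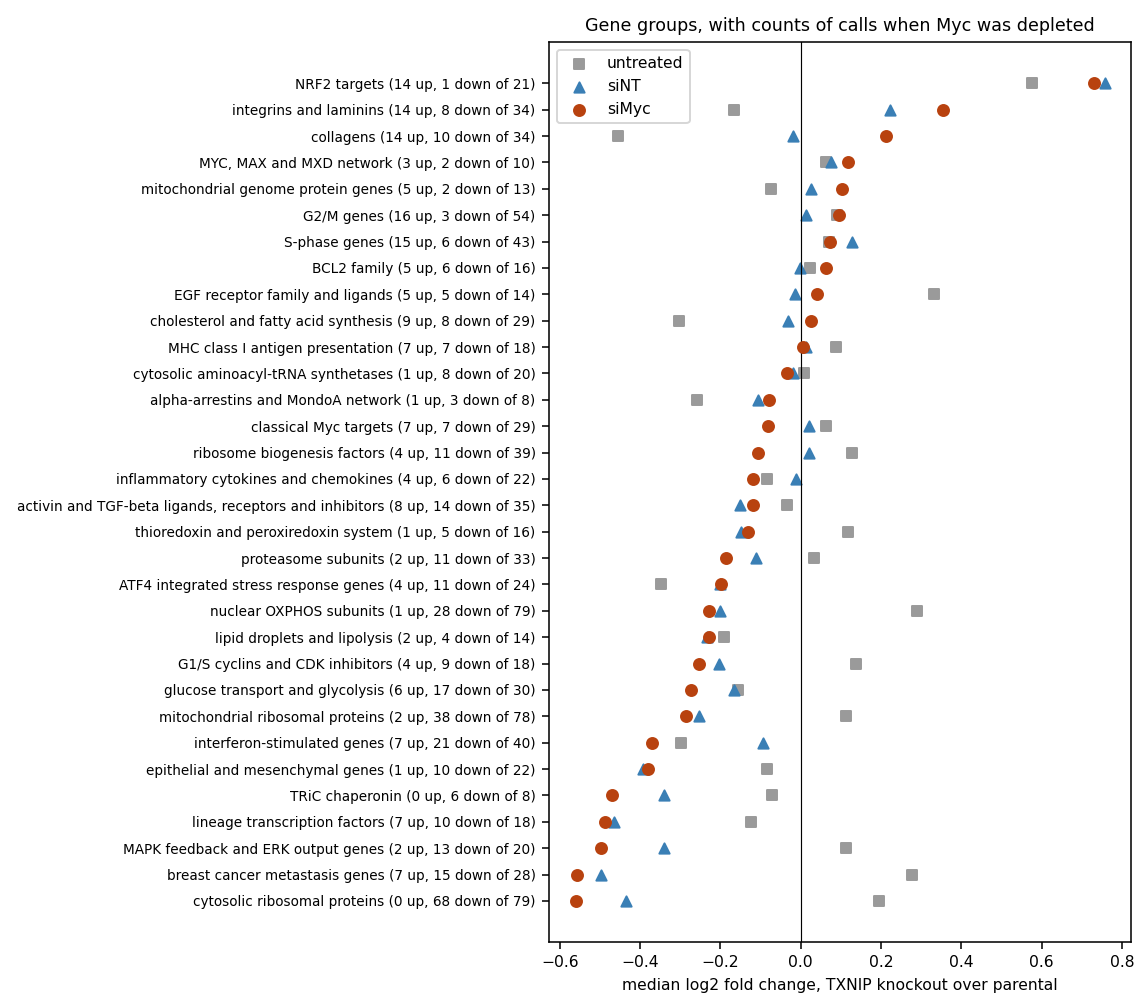
Median log2 fold change of 231:TKO over parental 231 in gene groups, with Myc depleted (circles), with siNT (triangles) and untreated (squares), sorted by the first. Counts in parentheses are genes called higher and lower with Myc depleted among those tested. Lists of cell type markers are not drawn. With Myc depleted, NRF2 targets lie at 0.73 and cytosolic ribosomal proteins at -0.56, the latter with the opposite sign in untreated cells.

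The genes of cytosolic ribosomal proteins stood out as a group that was lower with Myc depleted. Of 79 tested, 68 were lower and 0 higher, with a median of -0.56. With siNT 49 were lower and 0 higher (median -0.43), and in untreated cells 1 was lower and 24 higher (median 0.19). RPL41 lay at 134, 142 and 135 CPM against 321, 313 and 471 (-1.42 ± 0.14, adjusted p = 4.37e-06), RPL28 at 211, 203 and 195 against 435, 445 and 578 (-1.25 ± 0.11, adjusted p = 1.86e-06) and RPS18 at 538, 534 and 512 against 1045, 1022 and 1487 (-1.16 ± 0.13, adjusted p = 1.2e-05). In each of them the highest parental value was library 3, the one with an excess of short genes. Without it 69 were lower and 1 higher, with a median of -0.39, and the median stayed between -0.65 and -0.39 in every setting tried. The count of lower genes ran from 48 to 71 when 1 library was left out and was 57 with gene length offsets. Ribosomal protein genes have many processed pseudogenes that may take some of their reads. Mitochondrial ribosomal proteins had 38 lower and 2 higher of 78 (median -0.29), and 39 lower and 10 higher without that library (median -0.17). With gene length offsets their median was -0.08. Without any other 1 of the 6 libraries 0 were higher. Nuclear subunits of oxidative phosphorylation had 28 lower and 1 higher of 79 (median -0.23). Without that library they had 30 lower and 18 higher, with a median of -0.07 (-0.05 with gene length offsets), so most of the lean to lower values rested on it. Without any 1 of the 231:TKO+siMyc libraries, 13 to 17 were lower. In untreated cells 29 of the subunits were higher and 0 lower.

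Among other growth genes, 6 of the 8 subunits of TRiC, the chaperonin that folds actin and tubulin, were lower and 0 higher (median -0.47). CCT6A lay at 233, 230.5 and 244 CPM against 367, 359 and 376 (-0.64 ± 0.08, adjusted p = 4.92e-05). Without library 3 of parental 231+siMyc 6 were lower and 2 higher. Of 39 ribosome biogenesis factors, 11 were lower and 4 higher, 38.5% called beside 40.6% over all genes, with 2 higher without library 3 of 231:TKO+siMyc and 7 without library 3 of parental 231+siMyc. BYSL, needed for the small subunit, lay at 31.7, 29.9 and 28.99 CPM against 77.7, 79.3 and 88.01 (-1.43 ± 0.10, adjusted p = 1.2e-07). DDX10 lay at 34.9, 35.2 and 35.98 against 73.1, 74 and 78.04 (-1.08 ± 0.09, adjusted p = 8.47e-07) and NHP2 at 44.8, 40.9 and 40.8 against 64.1, 63.2 and 90.95 (-0.78 ± 0.13, adjusted p = 0.000444). WDR12 (0.75 ± 0.10) and POLR1B (0.52 ± 0.12) were higher. Of 29 classical Myc targets, 7 were higher and 7 lower, with a median of -0.08. TFRC, the transferrin receptor, was higher at 470.3, 495 and 539 against 247, 250.4 and 186 CPM (1.14 ± 0.12, adjusted p = 5.49e-06), with MTHFD2 (0.71 ± 0.10) and SHMT1 (0.62 ± 0.09) of folate metabolism. ODC1, which makes polyamines (-0.69 ± 0.09), FBL, a methylase of ribosomal RNA (-0.64 ± 0.12), and TERT, the telomerase subunit (-2.90 ± 0.32), were lower. Of 20 cytosolic aminoacyl-tRNA synthetases 8 were lower and 1 higher, among them FARSA (-0.96 ± 0.10) and VARS1 (-0.73 ± 0.09). Proteasome subunits had 11 lower and 2 higher of 33 (39.4% called), and 14 lower and 5 higher without library 3 of parental 231+siMyc.

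Epithelial and lineage genes differed widely. Of 18 lineage transcription factors tested, 17 were called, 7 higher and 10 lower. TP63, of basal cells, lay at 3.03, 2.78 and 3.27 CPM against 0.651, 0.651 and 0.4404 (2.38 ± 0.20, adjusted p = 7.08e-07). SOX4 was lower (-4.66, adjusted p = 9.51e-11), as was KLF5 (-1.17, adjusted p = 3.63e-06), while SOX9 (1.03, adjusted p = 1.12e-06) and RUNX2 (0.75, adjusted p = 4.54e-05) were higher. FOXA1, ESR1, SOX2 and GRHL2 also passed, each at no more than 0.510 CPM in any of the 6 libraries. CDH1, which encodes E-cadherin, lay at 1.08, 0.999 and 1.06 CPM against 9.42, 9.196 and 7.87 (-3.07 ± 0.15, adjusted p = 3.26e-09). The keratins KRT8 (-1.001 ± 0.10) and KRT19 (-0.95 ± 0.11) were lower, and so was VIM (-0.60 ± 0.08), the mesenchymal intermediate filament. Of 22 epithelial and mesenchymal genes, 10 were lower and 1, S100A4, was higher (50.0% called beside 40.6% over all genes). Without library 1, 2 or 3 of parental 231+siMyc, 3, 2 and 4 were higher. The 8 epithelial line markers tested summed to between 218 and 247 CPM in 231:TKO+siMyc and to between 168 and 207 in parental 231+siMyc, with GRHL2 at 0 in the former. CLDN4, at 224, 225 and 196 against 139, 135 and 171 CPM, made up most of it. By gene, 4 of the 8 were lower and 2 higher, with a median of -1.58, the opposite direction to the sum. Their part in the other results was not tested.

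Of 28 genes tied to breast cancer metastasis, 15 were lower and 7 higher (78.6% called, median -0.56). VCAM1, an adhesion receptor, lay at 0.255, 0.297 and 0.201 CPM against 43.7, 41.6 and 38.9 (-7.35 ± 0.16, adjusted p = 5.54e-12). PTGS2, the cyclooxygenase COX-2, lay at 0.0851, 0 and 0.0251 against 11.4, 10.9 and 7.07 and the metalloprotease ADAMTS1 at 0.0567, 0 and 0 against 16.6, 17.6 and 13.03. All 3 were at or below 0.610 CPM in untreated cells of either genotype. IL11, a cytokine of bone metastasis, lay at 2.98, 2.43 and 1.86 against 71.4, 68.3 and 87.7 (-4.97 ± 0.17, adjusted p = 1.78e-10) and was lower untreated as well (-3.37, adjusted p = 0.00856). MMP1 (-3.60, adjusted p = 1.38e-09), CXCR4 (-2.45, adjusted p = 2.4e-09) and ANGPTL4 (-3.47, adjusted p = 1.55e-09) were lower. MMP9 lay at 2.297, 1.78 and 2.29 against 0.475, 0.305 and 0.3403 CPM (2.49 ± 0.23, adjusted p = 2.42e-06) and PTHLH, the parathyroid hormone-like peptide, at 1.47, 1.32 and 1.48 against 0.668, 0.753 and 0.601 (1.09 ± 0.20, adjusted p = 0.000843). SPP1, osteopontin, was higher at 6.18, 5.75 and 6.56 against 0.317, 0.651 and 0.541, with unshared exonic lengths of 2321 and 7250 bases in the releases. Among 22 inflammatory cytokines and chemokines, 4 were higher and 6 lower. CCL2, which recruits monocytes, lay at 33.01, 29.9 and 39.5 against 4.94, 4.72 and 5.25 CPM (2.78 ± 0.12, adjusted p = 1.66e-09), and IL24 and CCL5 were higher by 1.67 and 1.64.

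Of 40 interferon-stimulated genes, 21 were lower and 7 higher (median -0.37), against 17 and 11 with siNT. Their median with Myc depleted ran from -0.42 to -0.11 over the settings tried. BST2, which tethers virions, lay at 126, 120.5 and 113 CPM against 294, 307 and 378 (-1.44 ± 0.11, adjusted p = 3.3e-07). IRF7 (-1.16, adjusted p = 2.46e-06) and MX1 (-0.77, adjusted p = 0.000399) were lower, and IFIH1, the RNA sensor MDA5, was higher at 60.5, 62.9 and 67.9 against 34.4, 35.4 and 26.3 (0.997 ± 0.12, adjusted p = 2.04e-05). OAS1 and IFITM1 were lower, but their unshared exonic lengths were 4964 and 585 bases in the earlier release and 13021 and 1315 in the later one. RIGI was at 140.1, 143 and 152 against 6.58, 5.595 and 2.66 CPM, and at 117 and 115 in untreated parental cells, which were counted on the earlier release. Its unshared exonic length was 4640 bases in that release and 5874 in the later one, and the release and the genotype cannot be told apart for it. Of 18 genes of MHC class I presentation, 7 were higher and 7 lower.

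Genes downstream of MAP kinase signalling were mostly lower. Of 20, 13 were lower and 2 higher (median -0.50), against 12 and 2 with siNT and 2 and 5 untreated. DUSP6, the phosphatase of ERK, lay at 133, 131 and 143 CPM against 543, 529.7 and 549 (-1.99 ± 0.09, adjusted p = 1.48e-09), while untreated cells held 155 and 118 against 114 and 112. DUSP1 lay at 12.02, 10.6 and 11.01 against 43.1, 41.7 and 47.01 (-1.96 ± 0.10, adjusted p = 8.43e-09) and EGR1 at 1.28, 1.81 and 1.71 against 6.66, 5.98 and 6.21 (-1.97 ± 0.15, adjusted p = 3.93e-07). FOSL1, an AP-1 subunit, went the other way at 349.5, 348 and 340.1 against 179, 180.3 and 182 (0.94 ± 0.08, adjusted p = 1.39e-06). Of 14 receptors and ligands of the EGF family, 5 were higher and 5 lower, with 3 lower without library 2 or library 3 of 231:TKO+siMyc. EGF lay at 8.93, 7.94 and 10.2 against 2.48, 2.12 and 1.92 CPM (2.05 ± 0.14, adjusted p = 1.47e-07) and the ligand NRG1 at 31.8, 31.4 and 31.5 against 96.1, 92.5 and 88.6 (-1.54 ± 0.09, adjusted p = 2.63e-08). ERRFI1, the feedback inhibitor of the receptor, lay at 257, 264 and 289 against 596, 601 and 489 (-1.05 ± 0.10, adjusted p = 3.19e-06).

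In the activin and TGF-beta family, 8 of 35 genes were higher and 14 lower. Besides INHBB, the ligand BMP2 was lower at 0.255, 0.108 and 0.151 CPM against 2.66, 2.46 and 2.24 (-3.83 ± 0.27, adjusted p = 1.67e-07). LTBP3, which holds latent TGF-beta, lay at 86.6, 81.6 and 73.5 against 43.9, 43.8 and 42.3 (0.90 ± 0.10, adjusted p = 8.47e-06) and the receptor BMPR2 at 84.2, 86.9 and 96.9 against 58.4, 59.7 and 41.4 (0.75 ± 0.13, adjusted p = 0.000467). The inhibitor SMAD7 was higher in all 3 comparisons (1.81, 1.88 and 1.53), with unshared exonic lengths of 5033 and 3946 bases in the releases.

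Of 14 genes of lipid droplets and lipolysis, 4 were lower and 2 higher, or 42.9% called, about the 40.6% over all genes, and 1 was higher without library 2 or library 3 of 231:TKO+siMyc. DGAT2, which makes triglyceride, lay at 6.83, 6.72 and 6.09 CPM against 21.1, 20.9 and 21.6 (-1.69 ± 0.10, adjusted p = 3.8e-08), and PNPLA2, the lipase ATGL that G0S2 inhibits, at 108, 105 and 90.4 against 152, 149 and 174 (-0.64 ± 0.10, adjusted p = 0.000257). Both were lower in untreated edited cells as well. Of 29 genes of cholesterol and fatty acid synthesis, 9 were higher, among them HMGCS1 (1.003 ± 0.10) and LSS (0.89 ± 0.09), and 8 lower, among them FADS2 (-0.62 ± 0.08). Without any 1 of the 231:TKO+siMyc libraries, 4 or 5 of the 29 were lower. Of 24 genes of the integrated stress response under ATF4, 11 were lower and 4 higher, with 6 lower without library 2 or library 3 of 231:TKO+siMyc. CHAC1, which degrades glutathione, lay at 6.18, 5.94 and 6.89 CPM against 38.3, 40.5 and 47.6 (-2.73 ± 0.12, adjusted p = 1.49e-09), and PHGDH, of serine synthesis, at 2.16, 1.67 and 2.04 against 5.45, 5.72 and 6.99 (-1.62 ± 0.16, adjusted p = 2.92e-06).

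Cell cycle genes differed in both directions. Of 43 S-phase genes, 15 were higher and 6 lower (median 0.07), and of 54 G2/M genes, 16 were higher and 3 lower (median 0.09), or 48.8% and 35.2% called beside 40.6% over all genes. Without library 3 of parental 231+siMyc 10 of the G2/M genes were lower, without library 2 or 3 of 231:TKO+siMyc 9 or 8 were higher, and without library 1 of the latter 3 of the S-phase genes were lower. UHRF1 lay at 75.4, 77.2 and 70.7 CPM against 39.1, 40 and 33.6 (0.99 ± 0.10, adjusted p = 5.28e-06) and BUB1 at 202, 205 and 225 against 117, 117 and 93.6 (0.95 ± 0.11, adjusted p = 1.1e-05). Of 18 G1/S cyclins and inhibitors, 9 were lower and 4 higher (72.2% called, median -0.25). CDK6 lay at 83.4, 84.2 and 86.3 against 31.5, 35.8 and 29.4 (1.40 ± 0.10, adjusted p = 2.05e-07) and CCND3, the cyclin that can pair with it, at 163, 146 and 138 against 288, 284 and 318 (-0.99 ± 0.10, adjusted p = 3.74e-06). In the BCL2 family 5 of 16 were higher and 6 lower, with 8 higher without library 3 of parental 231+siMyc. BCL2 (1.04 ± 0.12) and the killer BCL2L11 (1.27 ± 0.11), known as BIM, were higher, and the killers BAK1 (-0.84 ± 0.09) and BOK (-0.89 ± 0.10) lower. Of 13 protein genes of the mitochondrial genome 5 were higher and 2 lower, with 4 lower without library 3 of parental 231+siMyc and 1 without any other, from MT-CO3 (0.82 ± 0.11) to MT-ND1 (-0.57 ± 0.08).

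Matrix genes were called in both directions. Of 34 collagens tested, 14 were higher and 10 lower, and of 34 integrins and laminins, 14 were higher and 8 lower, or 70.6% and 64.7% called beside 40.6% over all genes. Without any 1 of the 231:TKO+siMyc libraries, or library 2 of the parental ones, 4 or 5 integrins and laminins were lower. COL1A2 lay at 1.84, 1.13 and 1.51 CPM against 28.98, 27.7 and 24.2 (-4.17 ± 0.16, adjusted p = 3.93e-10). ITGAX, the leukocyte integrin CD11c, lay at 4.99, 5.97 and 4.93 against 0.229, 0.163 and 0.1201 (4.92 ± 0.22, adjusted p = 2.08e-09), and ITGA10 at 0.993, 0.702 and 0.905 against 6.26, 5.76 and 5.43 (-2.74 ± 0.17, adjusted p = 3.25e-08). ITGAM lay at 0.681, 0.405 and 0.629 against 0.0703, 0.0407 and 0.02002 (3.60 ± 0.48, adjusted p = 5.5e-05).

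Calls lay on every chromosome but not evenly. On chromosome 6, 246 of 714 genes above 1 CPM were higher and 268 lower, beside 3421 and 3997 of 13523 over all. The median there was -0.02, since higher and lower genes offset each other. Per chromosome, the median log2 fold change of genes above 1 CPM ran from -0.18 on chromosome 19 to 0.21 on chromosome 13, where 97 genes were higher and 33 lower. With siNT chromosome 13 had a median of 0.24, and untreated 0.03. Chromosome 4 showed the reverse pattern, with a median of 0.48 in untreated cells and 0.04 with Myc depleted. Of the promoters of tested genes in the table, 8.37% held CACGTG in the 250 bases before the start. The share was 10.0% among genes higher in the edited cells with Myc depleted and 6.62% among those lower, given as a description. Among genes higher in both siRNA comparisons it was 10.5%, and among those lower in both 6.4%. Among genes called with siNT but not with Myc depleted, it was 11.4% of 263 higher and 9.13% of 427 lower.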

How the data were processed

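RNA was sequenced from 16 libraries, made with a strand-specific kit. The authors aligned reads with STAR to GRCh38 and deposited raw counts per gene from featureCounts 1.6.3, 1 table for each library, on 2 Ensembl releases. Genes listed in both releases were kept (60620), and 67.8% of them had a symbol in the reference table. Samples were grouped by their titles. Total counts ran from 18953668 to 59799444, and a floor of 3 counts per library marks the least signal the depth can show, for counting error only.

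Genes with more than 5 counts summed over a comparison were tested with the quasi-likelihood F test of edgeR 4.0.16 in R 4.3.3 (robust, TMM scaling) on the libraries of that comparison, and p-values were adjusted by Benjamini and Hochberg's method over all genes tested, two-sided, with a threshold of 0.05. The standard error is the log2 fold change divided by the square root of F. The difference between genotype contrasts was fitted over the 12 siRNA libraries. DESeq2 1.42.0 was an alternative, beside other scaling, filters, thresholds, thinned counts, region and length offsets, a replicate block, and each library left out. The edgeR fit of the siMyc comparison was tested on simulated counts in which no library stood apart. The other fits were not tested in this way.

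Named genes were those that the study names, the 10 highest and 10 lowest of at least 1 CPM whose groups did not overlap, the 8 higher and 8 lower with the largest smallest difference over the 3 comparisons, and the 3 highest and 3 lowest called members of each list. Other members are named for their role, with their values known. The comparison and the lists were chosen with earlier results of these data known. Promoter sequences came from RefSeq (GRCh38.p14). Lists are given by counts and medians, with no list test.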

Additional observations from a re-analysis of the deposited data

Results flagged for a closer look

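For 6 genes the genotype difference itself differed between the siMyc and siNT arms when tested as an interaction by DESeq2 over the 12 siRNA libraries. The difference of log2 fold changes, siMyc minus siNT, was -0.67 for BZW2, -0.64 for PUS7, -0.46 for DDX10, -0.44 for PMEPA1, -0.44 for IFIT2 and -0.41 for CTPS1. The ratio of siNT to siMyc levels was 1.98 in 231:TKO and 1.31 in parental cells for PUS7, 1.84 and 1.44 for CTPS1, 2.26 and 1.47 for BZW2 and 1.51 and 1.14 for DDX10. edgeR called none of these 6 with all 12 libraries (adjusted p from 0.781 to 1.00) and all 6 without library 1 of parental 231+siNT and library 3 of parental 231+siMyc, with values from -0.67 to -0.44. In untreated cells, log2 fold changes between genotypes were 0.01 for BZW2 and 0.44 for DDX10.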

How the results depend on the processing

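With Myc depleted, calls ranged from 6711 to 10342 over the alternatives that kept all libraries and from 7353 to 11354 when 1 library was left out (3331 to 5274 higher and 3975 to 6080 lower), the most without library 3 of parental 231+siMyc. With siNT they ranged from 6246 to 10875 when 1 library was left out, and an adjusted p of at most 0.01 left 2460 higher genes. Untreated, that threshold left 229 calls (116 higher and 113 lower), a log2 size of at least 0.5 left 711 higher, and leaving out 1 library gave 0 to 6995 calls (0 to 3484 higher, 0 to 3545 lower). The difference of the genotype contrasts gave 6 calls with DESeq2, 0 higher and 6 lower, and 63 without the pair of parental libraries low in long genes, 25 higher and 38 lower; the cause was not tested. Leaving out 1 library gave 0 such calls by edgeR. Shared calls of the siRNA comparisons with the same direction ranged from 5800 to 7876 when 1 library was left out.

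The replicate numbers share only a number: deviations of same-numbered libraries correlated at -0.07, -0.14 and -0.18 with siMyc. With a replicate block 8182 genes were called with siMyc, 903 untreated (522 higher and 381 lower) and 0 for the difference of contrasts. Of 215 named genes, 211 were called and 176 of these in every alternative tried. Apart from those that the study names, these genes were chosen among called ones, so the 211 was largely fixed by the choice. The direction turned for MRPS9 with offsets for windows of 20 Mb (-0.073) and for MT-CO1 with gene length offsets (0.045). List medians moved by more than the spread between replicates in 96 cases and by less in 624. Of the 96, 20 came with gene length offsets and 14 with offsets for windows of 20 Mb. Low counts limit the genes under 3 counts per library.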
